A study of Homo sapiens with 9 samples.

Results

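The 7 mitochondrially encoded subunits of complex I are made from MT-ND1, MT-ND2, MT-ND3, MT-ND4, MT-ND4L, MT-ND5 and MT-ND6. They were followed library by library in A2780, an ovarian carcinoma cell line of human origin. The members were the rows of the deposited count table whose Ensembl identifiers carry these 7 symbols. All 7 were present among 24542 genes and loci, and all 7 passed the filter on low counts with counts in every library. The study compared 3 libraries of cells given Pt-ttpy at 5.5 µM, 3 of cells given cisplatin at 0.6 µM and 3 of cells kept in 0.5% DMSO, each for 96 h. Pt-ttpy is a platinum complex described in the series title as a binder of G-quadruplexes in mitochondria and in the nucleus, and these are structures into which guanine-rich strands can fold. Cisplatin is an older platinum drug whose adducts link bases of DNA. All cells were of the same line with a genotype labelled WT, both drugs were given at the concentration labelled IC80, and the libraries are labelled as biological replicates. Whether those replicates were separate cultures is not stated, so the p-values measure the spread between these libraries.

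Complex I (NADH:ubiquinone oxidoreductase) is the entry point of NADH electrons into the respiratory chain. Its membrane arm contains the MT-ND subunits, which pump protons and help bind ubiquinone, and its other subunits are made from nuclear genes. Human mitochondrial DNA is read from promoters on both strands into long precursors that are cut mostly at tRNAs, so the mRNAs of a strand begin as parts of shared transcripts, and their levels are then set further by their stability. Of the MT-ND mRNAs, only MT-ND6 comes from the light-strand promoter.

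In GENCODE 29 (GRCh38) the members lie on chromosome MT, and each is a single exon with no intron. MT-ND1 spans 3307 to 4262, MT-ND2 4470 to 5511, MT-ND3 10059 to 10404, MT-ND4L 10470 to 10766, MT-ND4 10760 to 12137 and MT-ND5 12337 to 14148, all on the + strand. MT-ND6 spans 14149 to 14673 on the − strand, directly next to the annotated end of MT-ND5. The last 30 annotated bases are shown because they differ in how the reading frame ends, with the letters of the stop signal in capitals.
MT-ND1: tacaatctccagcattccccctcaaaccTA
MT-ND2: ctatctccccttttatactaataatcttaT
MT-ND3: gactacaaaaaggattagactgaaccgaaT
MT-ND4: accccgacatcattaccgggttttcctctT
MT-ND4L: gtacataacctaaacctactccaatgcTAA
MT-ND5: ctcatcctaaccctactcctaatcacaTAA
MT-ND6: attgtaattgagattgctcgggggaatAGG
The DNA of MT-ND1, MT-ND2, MT-ND3 and MT-ND4 holds only a part of a stop codon (TA or T), which the added poly(A) tail completes. MT-ND6 has another base make-up than the rest: its transcript holds 35.6% G and 7.0% C, against 9.5% to 12.1% G and 29.5% to 36.0% C in the other members.

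MT-ND4L and MT-ND4 are carried by the same mature mRNA and share 7 bases, 10760 to 10766, shown in capitals inside MT:10737-10789.
MT-ND4L to MT-ND4: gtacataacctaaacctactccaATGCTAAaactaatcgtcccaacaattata
The capitals begin with the start codon of MT-ND4 and end with the stop codon of MT-ND4L. Their counts are therefore not independent measurements.

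Because the study concerned G-quadruplexes, the members were searched on both strands for the usual pattern of 4 runs of at least 3 G separated by 1 to 7 bases. The pattern occurred once in each of MT-ND1, MT-ND3 and MT-ND5, in every case on the strand opposite to the transcript. These matches are shown 5′ to 3′ on the − strand with the G runs in capitals.
MT-ND1, MT:3566-3589: GGGGGttGGGtatGGGGaGGGGGG
MT-ND3, MT:10184-10207: GGGacgcGGGcGGGGGatataGGG
MT-ND5, MT:12362-12390: GGGGGGaattaGGGaagtcaGGGttaGGG
No match was found on either strand of MT-ND2, MT-ND4L, MT-ND4 or MT-ND6. Of GENCODE coding transcripts within 10% of the same length, the pattern was present on either strand in 20.0% for MT-ND1, 8.38% for MT-ND3 and 32.5% for MT-ND5. For the 4 members without a match the same share was 21.2% at the length of MT-ND2, 5.27% at that of MT-ND4L, 26.4% at that of MT-ND4 and 11.3% at that of MT-ND6. A match of letters is a description and not a measured structure or a drug binding site.

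Library totals lay between 31.3 and 40.8 M counts, and no libraries were duplicates of each other. Cisplatin 2 and DMSO 2, the libraries numbered 2 in their groups, stood apart from the other 7 in their trend with transcript GC content. For each of 13370 nuclear genes, log2 levels were centred on the gene's mean over the 9 libraries. The centred levels had a Spearman rho with GC content of 0.42 in cisplatin 2 and 0.53 in DMSO 2, and −0.35 to −0.17 elsewhere. Because of the centring, high values in some libraries lower those in the others. Vimentin (VIM), a mesenchymal filament protein, was at 4922 to 8964 CPM (gene counts scaled for library size with TMM factors). The epithelial and ovarian markers KRT18, CDH1, PAX8, WT1 and MUC16 were at or near 0 (at most 0.296 CPM), while KRT8 reached 1.78 and EPCAM 1.14 CPM. Apart from the lysosomal protein CD68 (2.77 to 5.54 CPM), the leukocyte, endothelial, erythroid, liver and muscle markers were at or near 0, none above 0.415 CPM.

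The MT-ND transcripts were spread widely in both drug groups and lay within a narrow band in DMSO. Together the 7 members took 1.49%, 0.611% and 0.642% of all counts in Pt-ttpy 1, 2 and 3, and 1.53%, 0.249% and 0.683% in cisplatin 1, 2 and 3. They took 0.570%, 0.587% and 0.574% in DMSO 1, 2 and 3. Pt-ttpy 1 and cisplatin 1 were high, cisplatin 2 was low, and the remaining drug-treated libraries were near the DMSO level. Counting error was small beside this: the exact binomial (Clopper-Pearson) 95% interval ran from 1.485% to 1.494% in Pt-ttpy 1, from 0.2478% to 0.2509% in cisplatin 2 and from 0.5671% to 0.572% in DMSO 1. The means were 0.914% ± 0.499 with Pt-ttpy, 0.821% ± 0.652 with cisplatin and 0.577% ± 0.00891 in DMSO (SD, n = 3 each). In bulk RNA, a change in transcripts per cell and a change in the share of cells that carry them cannot be told apart.

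**Figure D1:**
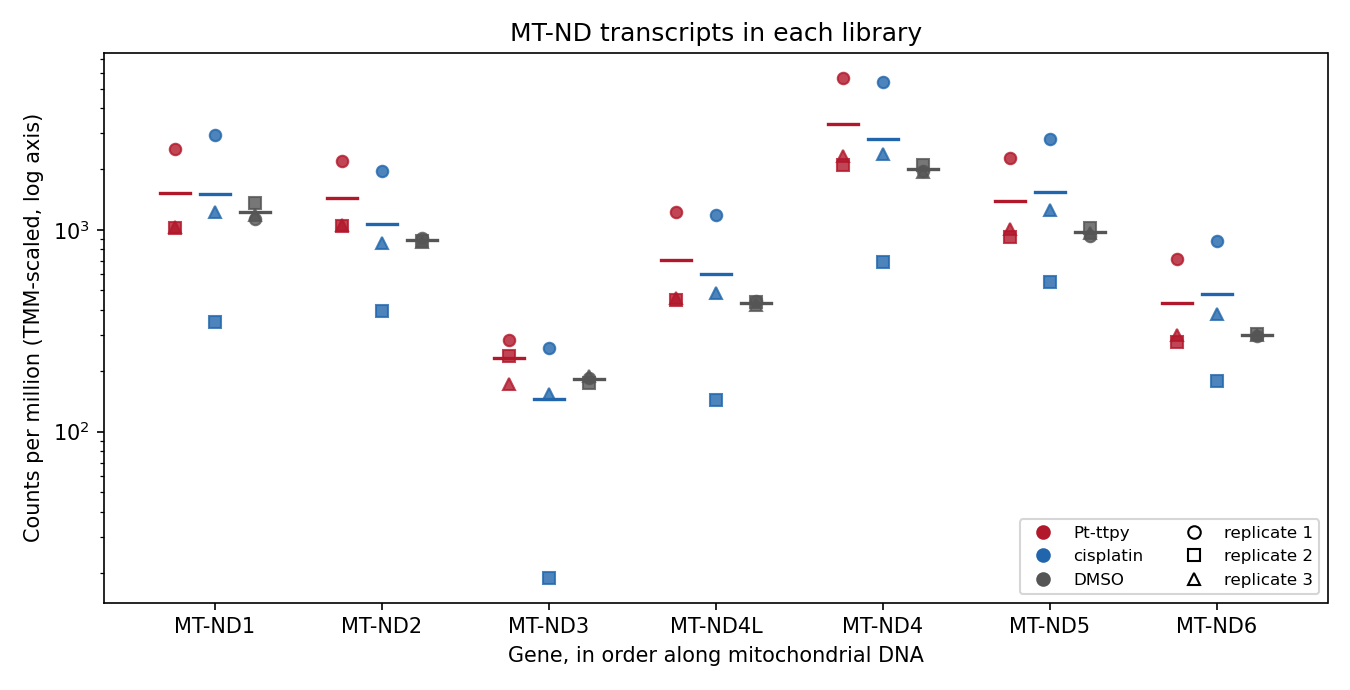
TMM-scaled CPM (log axis) of the 7 MT-ND transcripts in each library, with Pt-ttpy, cisplatin and DMSO from left to right for each gene, a symbol for each replicate number and a bar at the group mean. The DMSO libraries lie close together, while Pt-ttpy 1 and cisplatin 1 lie above them and cisplatin 2 below for every member, lowest for MT-ND3 at 18.9 CPM.

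MT-ND4 and MT-ND4L, proton-pumping subunits of the membrane arm, moved almost as 1 measurement. MT-ND4 was at 5645, 2090 and 2319 CPM in Pt-ttpy 1, 2 and 3, at 5388, 694 and 2360 CPM in cisplatin 1, 2 and 3, and at 1943, 2099 and 1921 CPM in DMSO 1, 2 and 3. MT-ND4L was at 1223, 447 and 460 CPM with Pt-ttpy, 1180, 144 and 486 CPM with cisplatin and 443, 440 and 423 CPM in DMSO. The 3 Pt-ttpy values of MT-ND4L all exceeded the DMSO values, 2 of them by a small margin, whereas MT-ND4 overlapped DMSO through Pt-ttpy 2. Per kilobase, MT-ND4L stood at 0.92 to 1.06 times MT-ND4 in the 9 libraries, cisplatin 2 (0.964) included.

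MT-ND2, another proton-pumping subunit, was at 2202, 1048 and 1052 CPM with Pt-ttpy, 1946, 394 and 855 CPM with cisplatin and 908, 882 and 868 CPM in DMSO. All its Pt-ttpy values lay above all its DMSO values. MT-ND1, which helps form the ubiquinone site, was at 2499, 1022 and 1035 CPM with Pt-ttpy, 2939, 350 and 1220 CPM with cisplatin and 1124, 1350 and 1188 CPM in DMSO. For MT-ND1, Pt-ttpy 2 and 3 were below every DMSO library and Pt-ttpy 1 was above, so the groups overlapped. Nuclear copies of mitochondrial sequence bear on this pair: 26.1% of the 100-base windows of MT-ND2 also occur in a GENCODE transcript of the pseudogene MTND2P28 and 11.0% of those of MT-ND1 in one of MTND1P23. No window of the other 5 members was found in a nuclear transcript. How reads that fit both places were counted is not given in the sources used here, so the counts of MT-ND1 and MT-ND2 are uncertain to that extent.

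MT-ND5, the proton-pumping subunit at the far end of the membrane arm, was at 2257, 916 and 1003 CPM with Pt-ttpy, 2817, 552 and 1254 CPM with cisplatin and 933, 1014 and 963 CPM in DMSO. MT-ND6, a subunit close to the junction with the peripheral arm, was at 719, 278 and 302 CPM with Pt-ttpy, 880, 179 and 384 CPM with cisplatin and 298, 304 and 300 CPM in DMSO. In both genes Pt-ttpy 2 was below every DMSO library and Pt-ttpy 1 above, and cisplatin values lay on both sides of DMSO. The MT-ND6 values in DMSO had an SD on the log2 scale that only 0.752% of the tested genes undercut. The 2 genes come from opposite strands, yet per kilobase MT-ND6 stood at 1.04 to 1.12 times MT-ND5 in all 9 libraries. The mRNA of MT-ND5 is known to run on past its reading frame into the region opposite MT-ND6. Since the strandedness of the counting is not given in the sources used here, reads of MT-ND6 and reads of RNA antisense to it cannot be told apart.

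MT-ND3, a small subunit with a loop near the ubiquinone site, departed most from the others. It was at 284, 238 and 172 CPM with Pt-ttpy, 260, 18.9 and 154 CPM with cisplatin and 185, 174 and 189 CPM in DMSO. The highest cisplatin value was 13.8 times the lowest, against ratios of 4.92 for MT-ND6 to 8.39 for MT-ND1 among the other members. In cisplatin 2, MT-ND3 stood at 0.103 of its DMSO mean, MT-ND1 at 0.287, MT-ND4L at 0.332, MT-ND4 at 0.349, MT-ND2 at 0.445, MT-ND5 at 0.569 and MT-ND6 at 0.594. In the high libraries the same gene gained least: it was 1.55 times its DMSO mean in Pt-ttpy 1, where the others were at 2.05 to 2.84 times, and 1.42 times in cisplatin 1, where the others were at 2.20 to 2.92 times.

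The spread within the drug groups was large beside that of other genes. The SD of log2 CPM over the Pt-ttpy libraries was 0.36 for MT-ND3 and 0.62 to 0.83 for the other members, which exceeded 90.3% to 99.2% of the 15558 tested genes (median SD 0.10). Over the cisplatin libraries it was 1.15 to 1.98 and exceeded 99.6% to 99.9% of genes (median 0.20). Over the DMSO libraries it was 0.02 to 0.14 and exceeded only 0.752% to 26.7% (median 0.21). The DMSO and cisplatin medians include DMSO 2 and cisplatin 2, which stood apart in GC trend. The part of these libraries in the SDs of other genes was not tested.

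No MT-ND transcript passed the test in any comparison. By edgeR's quasi-likelihood test with Benjamini-Hochberg adjustment over 15558 genes, 0 of 7 were called at an adjusted p under 0.05 for Pt-ttpy against DMSO, where 12% of all tested genes were called. The count was 0 of 7 for cisplatin against DMSO, where 20.5% of genes were called, and 0 of 7 for Pt-ttpy against cisplatin, where 0.514% were called. At an unadjusted edgeR p under 0.05 the count was also 0 of 7 in each comparison, beside 4637, 5465 and 1254 of the 15558 genes in the same order. DESeq2 and limma-voom likewise called 0 of 7 in each. Over all these genes DESeq2 called 2853, 3943 and 253, and limma-voom 1708, 3190 and 86. The first 2 comparisons share the DMSO libraries, and the third shares a drug group with each of them. None of these results shows that the levels were alike, because the intervals are wide. The fit gives each gene 1 spread over all 9 libraries. Intervals for Pt-ttpy against DMSO thus also carry the spread of the cisplatin libraries. With the 6 libraries of that comparison alone, MT-ND2 had an unadjusted edgeR p of 0.0437 (adjusted p = 0.141) and MT-ND3 an adjusted p of 0.163. In that fit 0 of 7 were called, beside 2217 of 14975 genes, and 4891 genes had an unadjusted p under 0.05.

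For Pt-ttpy against DMSO the fitted log2 changes ran from 0.32 to 0.75, with a median of 0.53 over the 7 members against 0.03 over all tested genes. MT-ND4 had the highest value (0.75, SE 0.73, 95% interval −0.98 to 2.49, edgeR adjusted p = 0.541). MT-ND2 had the lowest p (0.69, SE 0.57, interval −0.67 to 2.06, edgeR adjusted p = 0.470). The others were MT-ND4L at 0.71, MT-ND6 at 0.53, MT-ND5 at 0.52, MT-ND3 at 0.34 and MT-ND1 at 0.32, with edgeR adjusted p of 0.58 to 0.815. The libraries did not overlap for 2 of 7 members, MT-ND2 and MT-ND4L, both higher with Pt-ttpy. Such separation upwards was seen in 20.3% of all tested genes and separation downwards in 20.6%. Without Pt-ttpy 1 the median was 0.06, MT-ND1 was at −0.25, MT-ND5 at −0.02 and MT-ND6 at −0.05, and the values of MT-ND2, MT-ND3, MT-ND4 and MT-ND4L were 0.24, 0.17, 0.15 and 0.06.

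For cisplatin against DMSO the values were 0.68 for MT-ND6, 0.67 for MT-ND5, 0.50 for MT-ND4, 0.47 for MT-ND4L, 0.30 for MT-ND1, 0.27 for MT-ND2 and −0.34 for MT-ND3, with edgeR adjusted p of 0.482 to 0.809. The groups overlapped for all 7 members, while 18.6% of all tested genes were separated upwards and 19.4% downwards. Direction hung on a single library: the median of 0.47 became −0.46 without cisplatin 1 and 0.94 without cisplatin 2. With the replicate number as a block, MT-ND1 was at −0.14 and MT-ND2 at −0.02. In a fit without cisplatin 2 and DMSO 2, MT-ND3 was at 0.15, and 0 of 7 members were called, beside 4728 of all 15646 tested genes.

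For Pt-ttpy against cisplatin, given at equal labelled toxicity, the values were 0.68 for MT-ND3, 0.43 for MT-ND2, 0.25 for MT-ND4, 0.23 for MT-ND4L, 0.01 for MT-ND1 and −0.15 for both MT-ND5 and MT-ND6. The edgeR adjusted p lay between 0.865 and 0.997, and for MT-ND3 the 95% interval was −1.17 to 2.54. All 7 members overlapped between the drugs, while 10.5% of all tested genes were separated upwards and 10.1% downwards. The median of 0.23 became 1.13 without cisplatin 1, −0.23 without cisplatin 2 and −0.41 without Pt-ttpy 1.

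**Figure D2:**
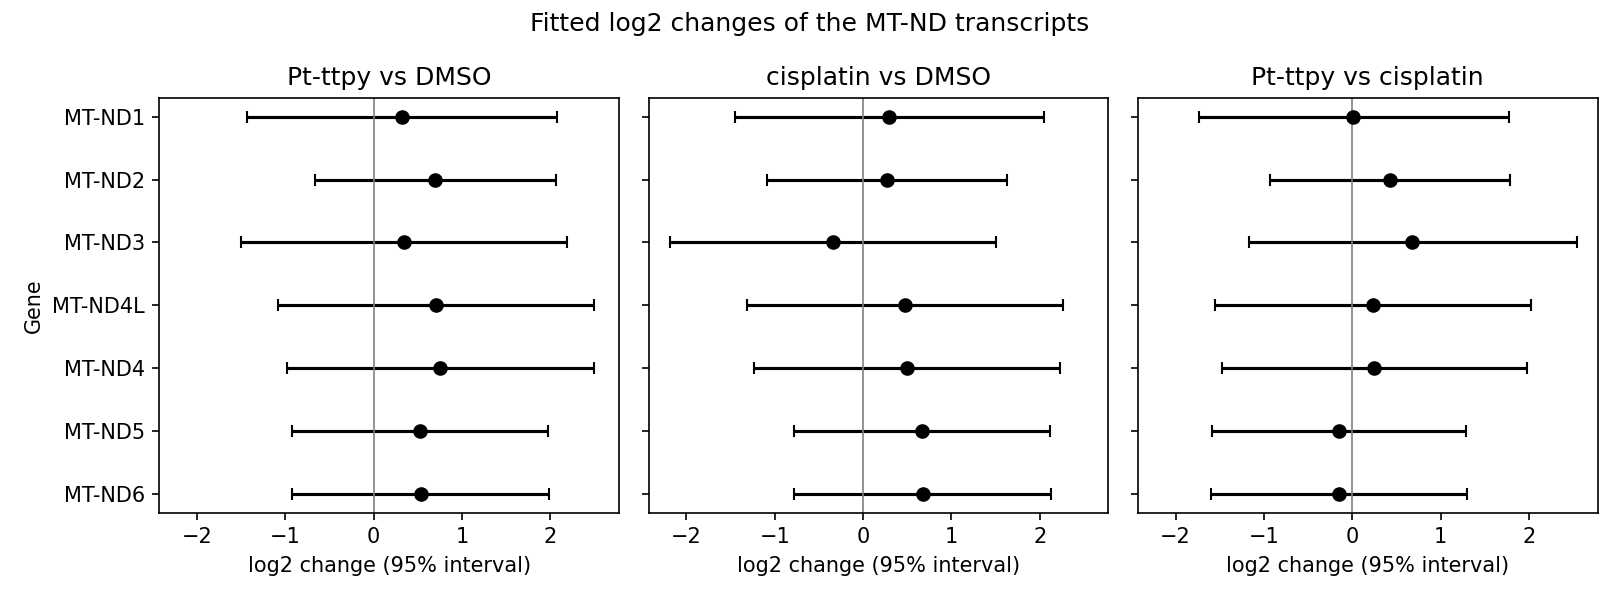
Fitted log2 changes of the 7 MT-ND transcripts in the 3 comparisons, with 95% intervals from edgeR's quasi-likelihood fit over 9 libraries. Every interval includes 0; the highest value with Pt-ttpy against DMSO is 0.75 for MT-ND4.

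Within a library, the 6 other mRNAs of mitochondrial DNA varied alongside the MT-ND mRNAs. They took 2.69%, 1.34% and 1.43% of counts with Pt-ttpy, 2.68%, 0.507% and 1.35% with cisplatin and 1.19%, 1.22% and 1.31% in DMSO. None of the 6 was called in any comparison (median log2 change 0.60, 0.27 and 0.31 for Pt-ttpy against DMSO, cisplatin against DMSO and Pt-ttpy against cisplatin). MT-CO1, MT-CYB, MT-ATP6 and MT-ATP8 had Pt-ttpy values all above DMSO. MT-CO2, a cytochrome c oxidase subunit, was at 0.14 of its DMSO mean in cisplatin 2, nearest to MT-ND3, while MT-CO1 of the same complex was at 0.666. The MT-ND genes made up 35.6%, 31.3% and 31.0% of the 13 mRNAs with Pt-ttpy, 36.4%, 33.0% and 33.7% with cisplatin and 32.5%, 32.4% and 30.4% in DMSO.

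Shares of the 13 mitochondrial mRNAs set aside the large swings in total, and here some members kept the libraries of a group apart from those of another. An exact two-sided permutation test of 3 against 3 libraries cannot give a p below 0.1, so none of the 21 tests could pass 0.05, and the lowest adjusted value over the 21 was 0.3. MT-ND5 held 6.65%, 7.80% and 6.29% of the 13 mRNAs in cisplatin 1, 2 and 3, against 5.19%, 5.24% and 5.00% in DMSO 1, 2 and 3. All cisplatin values were higher, although the total was high in cisplatin 1 and low in cisplatin 2 (6.91% ± 0.788 and 5.15% ± 0.125, SD, n = 3 each, exact permutation p = 0.1). MT-ND6 followed, with 2.08%, 2.53% and 1.93% in cisplatin and 1.66%, 1.57% and 1.56% in DMSO (exact permutation p = 0.1, the smallest possible). With Pt-ttpy, MT-ND5 held 5.43%, 4.75% and 4.90% and MT-ND6 1.73%, 1.44% and 1.47%, which overlapped DMSO. The Pt-ttpy shares of both genes were below all cisplatin shares (differences of −1.88 and −0.628 percentage points, exact permutation p = 0.1 for each).

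The share of MT-ND3 was 0.613%, 0.267% and 0.774% with cisplatin, below its 1.03%, 0.899% and 0.980% in DMSO in every library (exact permutation p = 0.1). With Pt-ttpy it was 0.682%, 1.23% and 0.842%, on both sides of the DMSO values. MT-ND1 held 6.01%, 5.30% and 5.06% with Pt-ttpy and 6.25%, 6.98% and 6.17% in DMSO, lower in every Pt-ttpy library (exact permutation p = 0.1). MT-ND2 held 5.29%, 5.44% and 5.14% with Pt-ttpy and 5.05%, 4.56% and 4.51% in DMSO, higher in every Pt-ttpy library (exact permutation p = 0.1). For MT-ND4 the mean share was 11.9% ± 1.46 with Pt-ttpy and 10.6% ± 0.492 in DMSO (SD, n = 3 each, exact permutation p = 0.2), and the libraries overlapped. Shares did not overlap between Pt-ttpy and DMSO for 2 of the 7 MT-ND mRNAs and 4 of the 6 other mitochondrial mRNAs. The counts were 3 of 7 and 3 of 6 for cisplatin against DMSO, and 2 of 7 and 0 of 6 for Pt-ttpy against cisplatin, and the difference between the MT-ND and other mRNAs was not tested. MT-CO3, for example, held 11.6% to 13.9% with Pt-ttpy, 9.20% to 12.6% with cisplatin and 15.8% to 17.0% in DMSO.

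**Figure D3:**
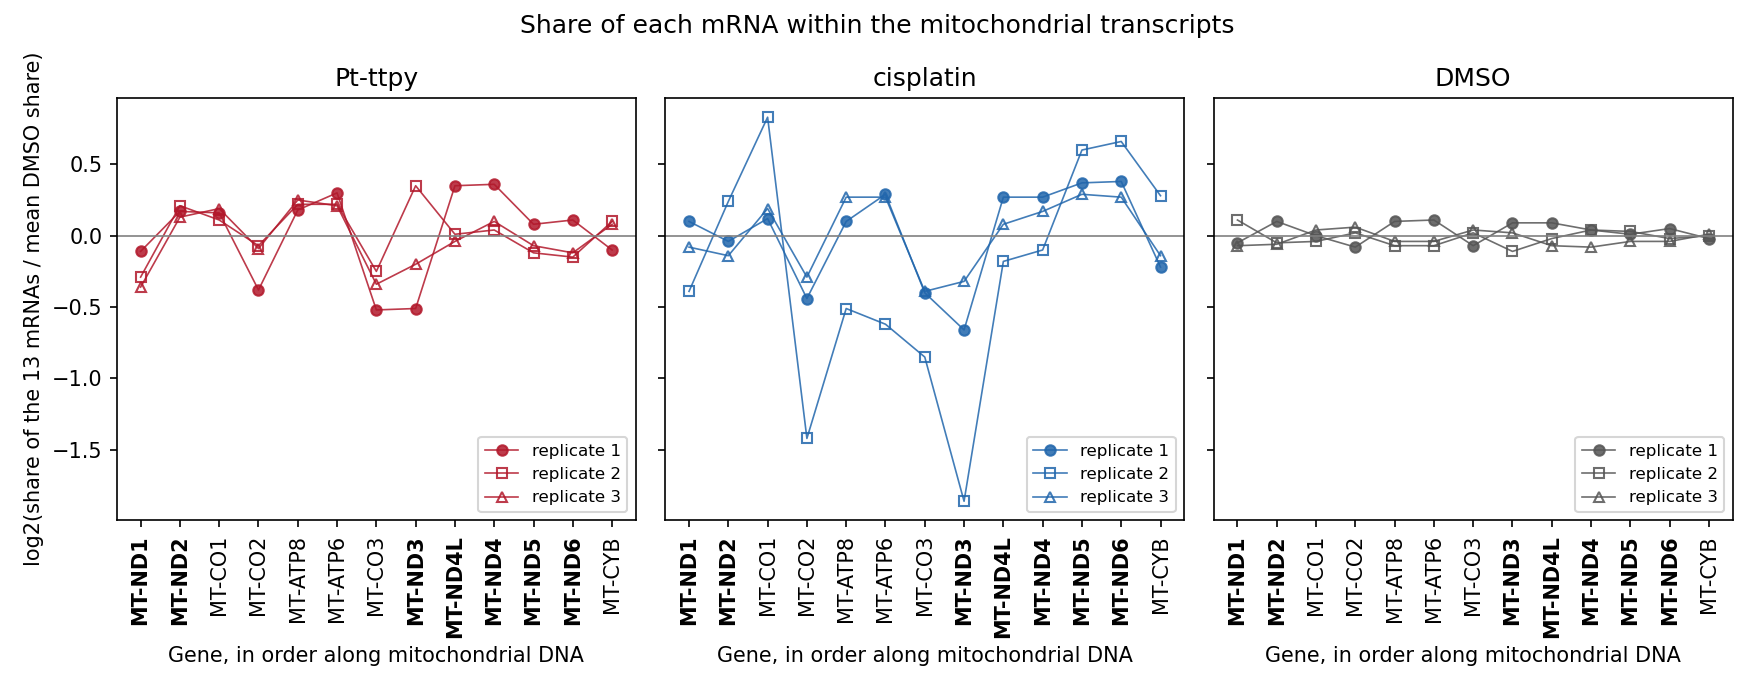
log2 of the share of each of the 13 mitochondrial mRNAs over its mean DMSO share, for the libraries with Pt-ttpy, cisplatin and DMSO from left to right, with genes in order along mitochondrial DNA and MT-ND names in bold. DMSO values stay within −0.11 to 0.11, MT-ND5 and MT-ND6 are above 0 in the 3 cisplatin libraries, and cisplatin 2 ranges from −1.86 for MT-ND3 to 0.83 for MT-CO1.

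Measures of the libraries moved with some of these values. In cisplatin 2 the share relative to DMSO went with transcript length over the 13 mRNAs (Spearman rho 0.56, n = 13 genes of 1 library). In DMSO 2 it did so too (rho 0.54), values elsewhere were −0.43 to 0.14, and over 13370 nuclear genes rho with length was −0.12 in cisplatin 2 and −0.25 in DMSO 2. With the GC content of the 13 mRNAs, the share had a rho of −0.43, −0.62 and −0.39 in Pt-ttpy 1, 2 and 3, of −0.19, 0.06 and −0.31 in cisplatin 1, 2 and 3, and of −0.83, 0.73 and 0.21 in DMSO 1, 2 and 3. MT-ND1, the member with the highest GC content (47.7%), had its highest DMSO share in DMSO 2. In cisplatin 2, 334 nuclear genes with transcripts under 1 kb had a median log2 deviation of 0.04 from their means over the 9 libraries. Genes with at least 1 count were most numerous in cisplatin 2 (18051, against 16908 to 17639 elsewhere). The part of these measures in the MT-ND values was not tested.

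Levels per kilobase followed nearly the same order in the 3 groups. With Pt-ttpy the order was MT-ND4 (2432 ± 1444 CPM per kb), MT-ND4L (2390 ± 1495), MT-ND1 (1588 ± 888), MT-ND2 (1376 ± 638), MT-ND6 (825 ± 472), MT-ND5 (768 ± 414) and MT-ND3 (668 ± 161; SD, n = 3 each). Cisplatin gave the same order, with MT-ND4 at 2042 ± 1727, MT-ND4L at 2032 ± 1776, MT-ND1 at 1572 ± 1378, MT-ND2 at 1022 ± 765, MT-ND6 at 916 ± 686, MT-ND5 at 850 ± 640 and MT-ND3 at 417 ± 349 CPM per kb. Between libraries, every pair of neighbours overlapped in both drug groups. In DMSO, MT-ND4L (1464 ± 36.5 CPM per kb) and MT-ND4 (1442 ± 70.6) overlapped, and MT-ND1 (1277 ± 122) overlapped MT-ND4. MT-ND2 (850 ± 19.4), MT-ND6 (573 ± 6.16) and MT-ND5 (535 ± 22.6) followed without overlap, and MT-ND3 (527 ± 22.4) overlapped MT-ND5. Within libraries, where the genes are paired, 4 of the 6 neighbouring pairs kept their order in all 3 libraries in each group. MT-ND4L exceeded MT-ND1 by 0.56 ± 0.09 on the log2 scale with Pt-ttpy and by 0.38 ± 0.02 with cisplatin, and MT-ND2 exceeded MT-ND6 by 0.79 ± 0.15 with Pt-ttpy, 0.16 ± 0.01 with cisplatin and 0.57 ± 0.04 in DMSO (SD of the difference, n = 3 each). MT-ND4 and MT-ND4L did not keep their order in any group. Set against MT-ND5 in the same library, MT-ND3 per kilobase stood at 0.658, 1.36 and 0.90 with Pt-ttpy, 0.483, 0.179 and 0.645 with cisplatin and 1.04, 0.898 and 1.03 in DMSO.

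Nuclear genes of complex I did not share the swings of the MT-ND genes. The summed level of 30 accessory subunits differed by 1.05-fold among the cisplatin libraries and 1.09-fold among the Pt-ttpy libraries, where the summed MT-ND level differed by 6.60-fold and 2.46-fold. For the 7 nuclear core subunits, which hold the redox centres, the figures were 1.09-fold and 1.06-fold. None of the 7 core subunits was called (median log2 change −0.19 for Pt-ttpy against DMSO and −0.18 for cisplatin against DMSO). Of the 30 accessory subunits, 5 fell and 25 were not called with Pt-ttpy, and 7 fell and 23 were not called with cisplatin. With Pt-ttpy these included NDUFB9 (−0.48, edgeR adjusted p = 0.0191), NDUFA6 (−0.51, 0.0199) and NDUFS6 (−0.53, 0.0278). Exons of NDUFB9 overlap MTSS1 and TATDN1 on the opposite strand, those of NDUFA6 overlap NDUFA6-DT and those of NDUFC2 overlap THRSP, so their reads may be shared. With cisplatin they included NDUFC2 (−0.59, edgeR adjusted p = 0.00591), NDUFA6 (−0.57, 0.00731) and NDUFA9 (−0.45, 0.0115). Of 19 assembly factors, 2 fell with Pt-ttpy, NDUFAF8 (−0.45, edgeR adjusted p = 0.0324) and NDUFAF2 (−0.37, 0.0468). With cisplatin 1 fell, NDUFAF2 (−0.55, edgeR adjusted p = 0.00721). Over all tested genes, 6.45% were called lower with Pt-ttpy and 9.78% with cisplatin. With Pt-ttpy, NDUFB9 and NDUFA6 were called in 6 of the 9 fits that left out a library, NDUFS6 in 5, NDUFAF8 in 4 and NDUFAF2 in 1. Without Pt-ttpy 1, 0 accessory subunits and 0 assembly factors were called with Pt-ttpy, and with upper-quartile scaling 3 accessory subunits and 0 assembly factors were. Calls fell over the whole table too. Genes called lower with Pt-ttpy numbered 1004 of 15558 in the main fit and 666 of 15558 with upper-quartile scaling. They numbered 68 of 15921 without Pt-ttpy 1, 42 of 15908 without Pt-ttpy 2 and 87 of 15955 without Pt-ttpy 3. With cisplatin the calls of NDUFC2, NDUFA6, NDUFA9, NDUFS6 and NDUFAF2 were made in all 9 fits that left out a library. The 7 accessory calls became 4 with upper-quartile scaling and without Pt-ttpy 1. Genes called lower with cisplatin numbered 1521 of 15558 in the main fit, 913 of 15558 with upper-quartile scaling and 1064 of 15921 without Pt-ttpy 1. The accessory calls ran from 3 to 10 over the alternatives other than leaving out 1 library. Over all tested genes the lower calls there ran from 395 of 15173 to 2559 of 15646. No subunit or assembly factor was called between the drugs.

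**Figure D4:**
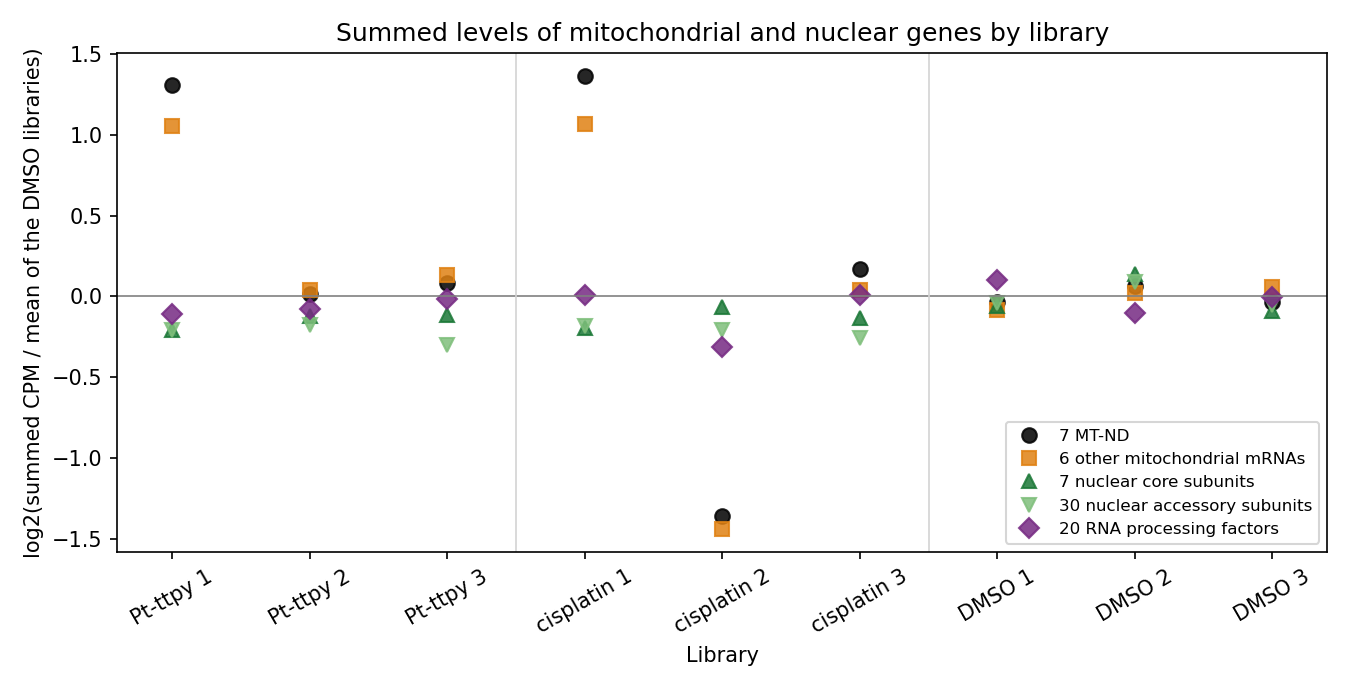
log2 of summed CPM over the mean of the DMSO libraries, for each library with Pt-ttpy, cisplatin and DMSO from left to right, for the 7 MT-ND genes, the 6 other mitochondrial mRNAs and 3 lists of nuclear genes. Both mitochondrial sums are high in Pt-ttpy 1 and cisplatin 1 and low in cisplatin 2, while the summed accessory subunits differ by at most 1.11-fold within a group.

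Of 17 genes that transcribe and copy mitochondrial DNA, 2 fell with Pt-ttpy and 15 were not called, and 3 fell with cisplatin and 14 were not called, beside 6.45% and 9.78% of all tested genes called lower with these drugs. TWNK, the helicase of mitochondrial DNA replication, fell by 0.70 with Pt-ttpy (edgeR adjusted p = 0.0154) and by 0.58 with cisplatin (0.0182). RNASEH1, which removes RNA from RNA-DNA hybrids, fell by 0.46 in both (edgeR adjusted p = 0.0168 with Pt-ttpy and 0.00948 with cisplatin), and SSBP1, the single-strand binding protein, by 0.41 with cisplatin (0.0397). The core of the transcription machinery was not called: with Pt-ttpy the values were −0.29 for the polymerase POLRMT, −0.11 for TFAM, −0.36 for TFB2M and 0.32 for the elongation factor TEFM (edgeR adjusted p 0.192, 0.782, 0.188 and 0.405). With cisplatin they were −0.25, −0.12, −0.22 and 0.04 in the same order (edgeR adjusted p 0.225, 0.717, 0.399 and 0.916). POLG, the replicative polymerase, was at −0.24 with Pt-ttpy and −0.26 with cisplatin (edgeR adjusted p 0.175 and 0.113). Without Pt-ttpy 1, 0 of the 17 fell with Pt-ttpy, where 68 of all 15921 tested genes were called lower. TWNK and RNASEH1 were each called with Pt-ttpy in 6 of the 9 fits that left out a library. With cisplatin TWNK and RNASEH1 were called in all 9 such fits and SSBP1 in 1 of 9 (highest edgeR adjusted p 0.0967). In the alternatives of other kinds, 0 to 4 of the 17 were called lower with cisplatin, so these calls did not hold in every fit. Over all tested genes, those called lower with cisplatin in these alternatives ran from 395 of 15173 to 2559 of 15646. Exons of TWNK overlap MRPL43 on the opposite strand, those of RNASEH1 overlap RNASEH1-AS1 and those of SSBP1 overlap WEE2-AS1, so their reads may be shared. None of the 17 was called between the drugs, but 3 were lower with Pt-ttpy without cisplatin 2 and DMSO 2. In that fit 442 of all 15646 tested genes were called lower with Pt-ttpy than with cisplatin.

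Of 20 genes that process or stabilise mitochondrial RNA, 3 fell with Pt-ttpy and 17 were not called, and 5 fell with cisplatin and 15 were not called, again beside 6.45% and 9.78% of all tested genes. With Pt-ttpy the tRNA 3′-end nuclease ELAC2 was at −0.56 (edgeR adjusted p = 0.0161), SUPV3L1, the helicase of the mitochondrial degradosome, at −0.33 (0.04) and TBRG4, an RNA-binding protein of the FASTK family, at −0.43 (0.0442). With cisplatin PDE12, which trims poly(A), was at −0.49 (edgeR adjusted p = 0.0297), TBRG4 at −0.43 (0.0313) and ELAC2 at −0.40 (0.0345), and SUPV3L1 at −0.29 (0.0488). LRPPRC and SLIRP, which form a complex that protects mitochondrial mRNAs, were at 0.32 and −0.34 with Pt-ttpy and at 0.28 and −0.41 with cisplatin (edgeR adjusted p 0.195 and 0.161, then 0.215 and 0.0819). LRPPRC was called higher with each drug in the fit without cisplatin 2 and DMSO 2. So were 2469 of all 15646 tested genes with Pt-ttpy and 2169 with cisplatin. GRSF1, which binds G-rich RNA such as light-strand transcripts, was at −0.13 with Pt-ttpy and −0.21 with cisplatin. FASTK, needed for the MT-ND6 mRNA, was at −0.26 with Pt-ttpy and −0.20 with cisplatin, and neither GRSF1 nor FASTK was called. FASTKD1, PNPT1 and the poly(A) polymerase MTPAP were at −0.06, −0.10 and −0.07 with Pt-ttpy and at −0.27, −0.27 and −0.01 with cisplatin, none called. Of the 9 fits that left out a library, ELAC2 was called in 6 with Pt-ttpy and 3 with cisplatin, TBRG4 in 3 with each, SUPV3L1 in 2 with Pt-ttpy and 1 with cisplatin, and PDE12 in 3 with cisplatin. Without Pt-ttpy 1, 0 of the 20 fell with either drug, where 68 of all 15921 tested genes were called lower with Pt-ttpy and 1064 with cisplatin. Without cisplatin 2, 0 fell with cisplatin, where 915 of 15752 genes were called lower. With upper-quartile scaling 1 fell with each, where 666 of 15558 genes were called lower with Pt-ttpy and 913 with cisplatin. Without cisplatin 2 and DMSO 2 the falls numbered 14 with Pt-ttpy and 9 with cisplatin, and 1 of the 20 was lower with Pt-ttpy than with cisplatin. Over all 15646 genes tested in that fit, 2720, 2559 and 442 were called lower in these comparisons.

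Among 10574 nuclear genes with a symbol and a mean of at least 5 CPM, none followed the summed MT-ND level closely. Likeness was the root mean square difference of centred log2 CPM over the 9 libraries, for which a gene with no variation would score 0.76. The nearest nuclear genes were ZNF81 and FAM13B at 0.52, CALHM4 and GALNT4 at 0.54 and UNC13C at 0.55. Among mitochondrial genes MT-ND4 scored 0.10, MT-ND4L 0.11, MT-ND1 and MT-ND2 0.16, MT-ND5 0.19, MT-CYB 0.20 and MT-ND6 0.21, the MT-ND genes being part of the sum they were set against. The other non-members were MT-ATP8 at 0.24, MT-CO1 at 0.25, MT-ATP6 at 0.27, MT-CO3 at 0.31 and MT-CO2 at 0.47. MT-ND3 scored 0.64, farther than the nuclear genes named above.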

How the data were processed

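Libraries were made with an mRNA kit from 1.3 µg of total RNA, per the labels' protocols. The authors deposited 1 table of whole-number counts, with a column for each of the 9 samples and no others. The build was GRCh38, per the submitters' processing notes. What is not given in the sources used here is the aligner, the counter, the strandedness and how reads with several matches were treated. The drug written "Cispt" was read as cisplatin.

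Counts were fitted with R 4.3.3 and edgeR 4.0.16 (filterByExpr with minimum count 10, TMM factors, robust quasi-likelihood, 1 mean per group, all 9 libraries), with Benjamini-Hochberg adjustment over 15558 genes and calls at an adjusted p under 0.05. DESeq2 1.42.0 and limma-voom (limma 3.58.1) were alternatives, beside other scalings and filters, the 6 libraries of a comparison alone, a replicate block, each library left out, and a fit without cisplatin 2 and DMSO 2. The fits were tested on data simulated with the usual spread of genes at each level. That test does not show the power for the MT-ND genes, whose spread in the drug groups was larger. Shares used exact permutation tests (scipy 1.17.1), and leaving out libraries for shares was chosen after seeing the data. Intervals of shares cover counting error only.

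Same-numbered cisplatin and DMSO libraries deviated together (r = 0.24, 0.40 and 0.22). Libraries 1 and 3 did so across numbers as well, with r of 0.17 for DMSO 1 and cisplatin 3 and 0.18 for DMSO 3 and cisplatin 1. Differently numbered pairs that held DMSO 2 or cisplatin 2 had r of −0.3 to −0.28. The values thus set library 2 apart in both groups and do not show a pairing by each number. Same-numbered Pt-ttpy libraries did not deviate together with DMSO (0.02, 0.01 and −0.04) or with cisplatin (0.11, 0.04 and 0.03).

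Coordinates and sequences come from GENCODE 29. The members and gene lists were chosen with earlier results of these data known. Besides the members, the genes named are the 6 other mitochondrial protein genes, 14 factors chosen by role, up to 3 called genes per list and comparison by adjusted p, and the 5 nuclear genes most like the MT-ND sum. A list of 13 nuclear humanin-like copies had 0 genes in the table.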

Additional observations from a re-analysis of the deposited data

How the results depend on the processing

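The MT-ND genes called were 0 of 7 in each comparison under each alternative run. The lowest unadjusted p for a member was 0.0219 (MT-ND2, Pt-ttpy against cisplatin without cisplatin 1, adjusted p = 0.516), and the lowest adjusted p was 0.141 (MT-ND2, Pt-ttpy against DMSO, its 6 libraries alone). The genes called over the table moved more. For Pt-ttpy against DMSO they were 1874, with DESeq2 2853, without cisplatin 2 and DMSO 2 5189, and 185 to 3004 with a library left out. For cisplatin against DMSO they were 3190, 1313 with its 6 libraries alone and 2012 to 3100 with a library left out. For Pt-ttpy against cisplatin they were 80, 253 with DESeq2, 813 without cisplatin 2 and DMSO 2, and 18 to 155 with a library left out.

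With the replicate block 2539, 3712 and 140 genes were called in these comparisons, and the MT-ND medians were 0.33, 0.03 and 0.40. MT-ND1 and MT-ND2 turned to −0.14 and −0.02 for cisplatin against DMSO, and the block changed no member's call. With limma-voom MT-ND1, MT-ND2 and MT-ND4L turned to −0.19, −0.04 and −0.02 for cisplatin against DMSO, and MT-ND5 and MT-ND6 to 0.04 and 0.01 for Pt-ttpy against cisplatin. Without cisplatin 2 and DMSO 2, MT-ND3 turned to 0.15 for cisplatin against DMSO, and MT-ND1, MT-ND4L and MT-ND4 to −0.45, −0.23 and −0.21 for Pt-ttpy against cisplatin. The causes were not tested. Upper-quartile factors changed the split of higher and lower calls for Pt-ttpy against DMSO to 1050 and 666, where TMM gave 870 and 1004, and for cisplatin against DMSO to 1940 and 913, where TMM gave 1669 and 1521.

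With a library left out, log2 changes for Pt-ttpy against DMSO ranged from −0.25 to 0.54 for MT-ND1, 0.24 to 0.88 for MT-ND2, 0.17 to 0.51 for MT-ND3, 0.06 to 0.96 for MT-ND4L, 0.15 to 1.01 for MT-ND4, −0.02 to 0.75 for MT-ND5 and −0.05 to 0.77 for MT-ND6. For cisplatin against DMSO they ranged from −0.64 to 0.77 for MT-ND1, −0.51 to 0.66 for MT-ND2, −1.08 to 0.18 for MT-ND3, −0.46 to 0.94 for MT-ND4L, −0.38 to 0.96 for MT-ND4, and −0.10 to 1.07 for MT-ND5 and MT-ND6. For Pt-ttpy against cisplatin they ranged from −0.55 to 0.95 for MT-ND1, −0.02 to 1.20 for MT-ND2 and 0.16 to 1.42 for MT-ND3. The ranges were −0.41 to 1.17 for MT-ND4L, −0.35 to 1.13 for MT-ND4, −0.68 to 0.63 for MT-ND5 and −0.73 to 0.62 for MT-ND6. Share differences that changed sign, in percentage points, ran from −0.207 to 0.0684 for MT-ND3, −0.0281 to 0.319 for MT-ND4L, −0.32 to 0.0194 for MT-ND5 and −0.139 to 0.00378 for MT-ND6 (Pt-ttpy against DMSO). They ran from −0.934 to 0.0575 for MT-ND1, −0.27 to 0.374 for MT-ND2 and −0.0714 to 0.301 for MT-ND4L (cisplatin against DMSO), and from −0.138 to 0.262 for MT-ND4L and −0.368 to 1.09 for MT-ND4 (Pt-ttpy against cisplatin). The 95% counting intervals of the shares within the 13 mRNAs were at most 0.175 percentage points to either side.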
